A study of Mus musculus with 8 samples.

Results

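The genes described here are 54 genes of DNA replication and cell division, chosen by name for their roles. All 54 were found among the 46078 gene IDs of the count tables, and all 54 passed the filter on low counts. They fall into 7 roles: 12 licensing and origin factors, 5 cofactors of the replicative helicase (Cdc45 and the GINS subunits), 12 genes of the replication fork, 4 of nucleotide supply, 3 E2F factors, 9 cyclins, CDKs and CDC25 phosphatases, and 9 genes of mitosis.

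RNA sequencing was done on mouse embryonic stem cells (ESCs) and on cells made from them, in 8 libraries that form 4 groups of 2, described as biological duplicates. All lines were XY on a C57BL/6 background, and the ESCs were kept in N2B27 medium with 2i (PD0325901 and CHIR99021) and LIF. The tcESCs carried tesco-cfp, a reporter in which an enhancer of Sox9 drives CFP. The tc;Sf1ESCs were a clone of tcESCs picked under G418 after transfection with an Sf1 (Nr5a1) expression vector, so that the transgene and the clone cannot be told apart. Sertoli cell-like cells (SCLCs) carried the same reporter and transgene and were sorted for CFP on day 12, after CHIR99021 with TTNPB and then CHIR99021, BMP7 and FGF9. The tod-PGCLCs were germ cell-like cells with the Prdm1-gfp reporter, sorted for GFP on day 6 from organoids built with the SCLC-containing cultures; the sources differ on the second sort marker (SSEA1 or CD49f). The tod-PGCLCs came from Prdm1-gfp ESCs turned into epiblast-like cells with bFGF, activin A and KSR. These were co-cultured in medium with CHIR99021 as the only added factor. Since tod-PGCLCs came from a line and a culture other than those of tcESCs, line, culture and cell type cannot be told apart in their comparison.

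The 8 libraries held between 25411033 and 30680191 counts on genes, and 3 counts correspond to 0.0978 to 0.118 CPM (counts scaled to the same library total). Nr5a1, the gene carried by the transgene, had 1 and 0 counts in tcESCs, 52 and 30 in tc;Sf1ESCs and 341 and 535 in SCLCs. These counts do not separate RNA of the transgene from that of the endogenous gene. The 10 pluripotency markers summed to 5810 to 6595 CPM in the 4 ESC libraries and to 1003 and 740 CPM in SCLCs. The 12 Sertoli markers summed to 581 and 606 CPM in SCLCs, most of it Gata4, while Amh, Dhh and Fshr stood at or below 1 CPM there. The 13 markers of visceral and primitive endoderm were all detected in SCLCs and summed to 2837 and 4844 CPM, against 18.0 to 20.1 CPM in ESCs. The summed markers of trophectoderm (776 and 978 CPM) and mesenchyme (1249 and 1140 CPM) were also higher in SCLCs than in any ESC library, mostly through Krt8 and Krt18 and through Pdgfra. Other markers of these lists were not, as Tfap2c, Eomes and Snai2 were within or below the range of the ESCs and Vim was below it. The 2 SCLC libraries differed from each other by 27.97 times counting error (chi-square per degree of freedom), against 1.41 to 9.06 in the other groups.

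Before a cell copies its DNA, the origin recognition complex (Orc1 to Orc6) with Cdc6 and Cdt1 loads the Mcm2 to Mcm7 helicase onto origins, which is called licensing. Cdc45 and GINS then join the helicase, and polymerases, the sliding clamp Pcna and its loader (Rfc) copy the strands. Replication genes are known targets of E2F factors, while many mitosis genes are known to be controlled through CHR and CCAAT elements by the DREAM and MYB-MuvB complexes and to peak later in the cycle. ESCs in culture divide fast and are known for a short first gap phase and high cyclin E.

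The promoters of both classes show these elements, and 7 are given here as examples of replication genes with E2F-type motifs and of cell division genes with CHR-type motifs; they were chosen after the matches were seen. Each is the 200 bases before the RefSeq start site (GRCm38.p6), written 5′ to 3′ along the gene, and was taken where the stretch ended at or before the annotated start of the gene. Capitals mark E2F-type motifs, the CHR-type motif TTTGAA, and CCAAT, each on either strand. Any of these words counted as an E2F-type motif: TTCCCGC as the first form, TTGGCGC as the second form, TTCGCGC as another form and finally TTGCCGC; the reverse of CCAAT can share letters with TTGGCGC, and 2 E2F-type motifs can overlap.
Mcm5 (chr8:75109309-75109508, plus strand): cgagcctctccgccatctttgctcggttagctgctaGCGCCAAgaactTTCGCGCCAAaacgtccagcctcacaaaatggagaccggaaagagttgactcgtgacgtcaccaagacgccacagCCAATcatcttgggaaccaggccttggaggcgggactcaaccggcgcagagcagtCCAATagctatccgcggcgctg
Mcm6 (chr1:128359706-128359905, minus strand): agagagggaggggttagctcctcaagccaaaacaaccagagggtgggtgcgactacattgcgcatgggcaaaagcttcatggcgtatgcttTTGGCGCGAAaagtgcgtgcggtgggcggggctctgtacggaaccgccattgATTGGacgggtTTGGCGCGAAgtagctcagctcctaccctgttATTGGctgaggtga
Pola1 (chrX:93632156-93632355, minus strand): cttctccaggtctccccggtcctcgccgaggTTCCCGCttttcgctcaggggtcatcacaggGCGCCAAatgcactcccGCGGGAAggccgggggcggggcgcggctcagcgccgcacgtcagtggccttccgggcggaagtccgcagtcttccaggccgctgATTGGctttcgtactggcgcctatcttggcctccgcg
Rrm1 (chr7:102441495-102441694, plus strand): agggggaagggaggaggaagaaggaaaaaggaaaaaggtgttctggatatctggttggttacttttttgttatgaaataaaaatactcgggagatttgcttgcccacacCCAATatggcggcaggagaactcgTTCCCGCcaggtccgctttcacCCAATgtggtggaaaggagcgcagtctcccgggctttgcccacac
Ccnb2 (chr9:70421555-70421754, minus strand): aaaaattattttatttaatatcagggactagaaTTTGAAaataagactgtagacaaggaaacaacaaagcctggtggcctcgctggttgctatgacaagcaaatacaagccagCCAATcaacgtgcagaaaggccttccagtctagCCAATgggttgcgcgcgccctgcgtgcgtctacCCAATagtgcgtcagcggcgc
Top2a (chr11:99024190-99024389, minus strand): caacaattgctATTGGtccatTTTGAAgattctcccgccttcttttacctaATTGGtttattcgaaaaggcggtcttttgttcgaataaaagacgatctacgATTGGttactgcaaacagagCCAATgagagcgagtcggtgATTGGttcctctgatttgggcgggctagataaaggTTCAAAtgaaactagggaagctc
Mki67 (chr7:135716380-135716579, minus strand): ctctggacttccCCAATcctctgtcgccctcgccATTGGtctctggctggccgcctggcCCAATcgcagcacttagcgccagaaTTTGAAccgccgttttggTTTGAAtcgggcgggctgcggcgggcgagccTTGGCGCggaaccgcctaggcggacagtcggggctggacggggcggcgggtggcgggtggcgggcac
The first 4 belong to replication genes, and each holds at least 1 E2F-type motif and no CHR-type motif. Those of Ccnb2, Top2a and Mki67 hold CHR-type motifs as well as CCAAT. The CHR-type motif shown for Ccnb2 begins at -167 from the start site, and a further match at 4 lies outside the stretch.

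Over windows of 300 bases (250 before and 50 after the start), 44 of the 54 members had a RefSeq promoter. An E2F-type motif lay in the windows of 18 of 27 replication members (66.7%), taking licensing, Cdc45 and GINS, fork and nucleotide genes together. It lay in 1 of 8 mitosis members, that of Mki67. Over all genes with a window the share was 10.9%, and over the genes tested it was 18.8%. With the bases before the start only, it lay in 12 of 27 replication members (44.4%), 4 of 11 fork genes among them, and in 1 of 8 mitosis members, against 9.01% of all genes. The 8-letter forms (the same words with 1 more T in front) lay in 13 of 27 replication members in the whole windows and in 8 of 27 before the start. The CHR-type motif lay in 6 of 8 mitosis members and 4 of 27 replication members, against 20.2% of all genes with a window and 14.3% of those tested. With the bases before the start only, it lay in 3 of 8 mitosis members and 4 of 27 replication members, against 18.3% of all genes with a window. CCAAT was common in both, in 16 of 27 replication and 7 of 8 mitosis members, against 41.1% of all genes. Among genes outside the 54, an E2F-type motif lay in 19 of 31 other replication genes and in 6 of 40 other mitosis genes, and the CHR-type motif in 3 of 31 and 26 of 40. With the bases before the start only, the CHR-type motif lay in 13 of 40 other mitosis genes and an E2F-type motif in 14 of 31 other replication genes. In the whole windows, the 8-letter E2F-type forms lay in 8 of 31 other replication genes, against 2.61% of all genes with a window. These are matches of letters, and no binding was measured.

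**Figure D1:**
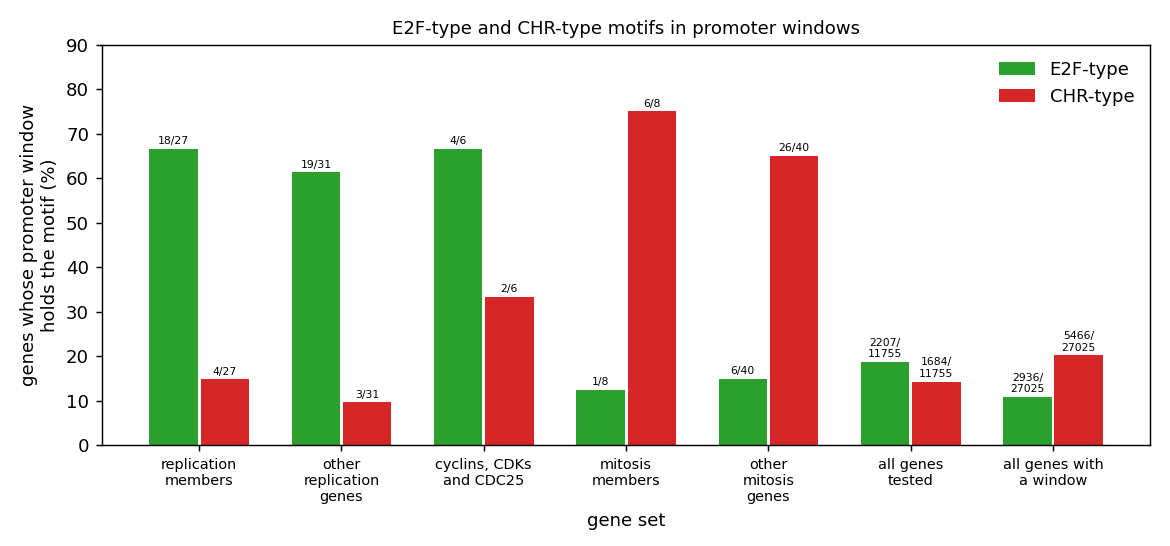
Share of genes (%) whose promoter window of 300 bases holds an E2F-type motif (green) or the CHR-type motif (red), by gene set, with the number of genes over the number with a window above each bar. The E2F-type bars are tall for replication genes (18 of 27) and low for mitosis members (1 of 8), and the CHR-type bars are the reverse.

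SCLCs were first compared with tc;Sf1ESCs, the line they were derived from. Most genes that copy DNA were lower in SCLCs, some by more than 2-fold, and 5 of 9 genes of mitosis were lower by less than 2-fold; the difference between the roles was not tested. Taking a fold change over 2 with an adjusted p under 0.05 as a call, 14 of 54 members were called lower and 0 higher. Of all 16481 genes tested, 18.1% were called lower and 24.1% higher. At an adjusted p under 0.05 with no limit on the fold, 41 members were lower and 2 higher, against 35.2% of all genes lower and 37.5% higher. The median log2 fold change was -0.64 over the members and 0.02 over all genes. In these bulk libraries, fewer cycling cells and less RNA per cell cannot be told apart.

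By role, the median log2 fold change was -0.89 for licensing factors, -0.50 for Cdc45 and GINS, -0.94 for fork genes, -0.79 for nucleotide supply and -0.90 for E2F factors. It was -0.17 for cyclins, CDKs and CDC25 and -0.27 for mitosis genes. Summed over the 12 licensing factors, levels were 4094 and 4080 CPM in tc;Sf1ESCs and 2019 and 1744 CPM in SCLCs. Summed over the 9 mitosis genes, they were 2176 and 2146 CPM in tc;Sf1ESCs and 2255 and 1909 CPM in SCLCs. The licensing sums did not overlap. The mitosis sums did, but Top2a alone gave 748 and 741 CPM of them in tc;Sf1ESCs and 855 and 670 CPM in SCLCs, and Mki67 gave 246 and 242 CPM and then 401 and 401 CPM, while 5 of the 9 genes were lower at an adjusted p under 0.05.

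**Figure D2:**
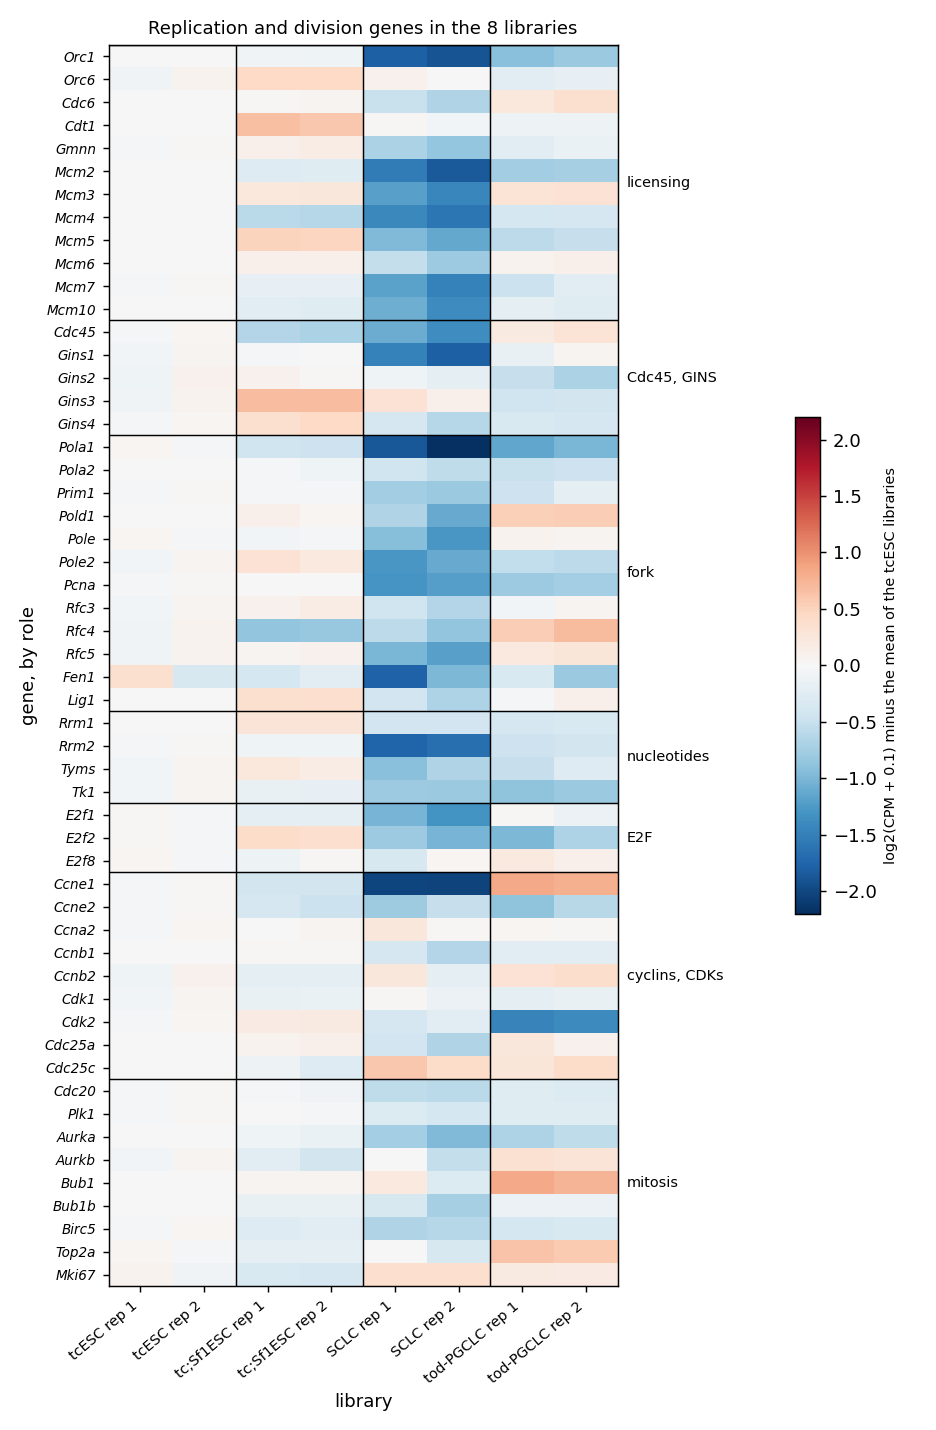
Level of each of the 54 genes (rows, by role) in each of the 8 libraries (columns), as log2(CPM + 0.1) minus the mean of both tcESC libraries; blue is lower and red higher. The SCLC columns are blue in most rows from Orc1 down to the nucleotide genes (not Orc6, Cdt1 and Gins3) and paler in most mitosis rows, where Mki67 is red.

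Among licensing factors, Orc1 (ENSMUSG00000028587), the largest subunit of the origin recognition complex, fell furthest. Its level was 87.6 and 86.4 CPM in tc;Sf1ESCs and 26.4 and 24.7 CPM in SCLCs (log2 fold change -1.72, SE 0.07, edgeR adjusted p = 1.19e-06). Orc6, another subunit, was at the other end, with 141.0 and 141.0 CPM in tc;Sf1ESCs and 111 and 105 CPM in SCLCs (log2 fold change -0.34, SE 0.07, edgeR adjusted p = 0.00411). The SCLC libraries lay below the tc;Sf1ESC libraries for both subunits, but for Orc6 not below the tcESC libraries (98.2 and 110.0 CPM).

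The helicase subunits moved together but by unequal amounts. Mcm3 went from 621 and 631 CPM to 231 and 195 CPM (log2 fold change -1.51), Mcm5 from 718 and 708 to 259 and 235 CPM (-1.48), Mcm2 from 522 and 528 to 217 and 175 CPM (-1.37) and Mcm7 from 474 and 476 to 239 and 191 CPM (-1.09). These 4 were called lower. Mcm4 (-0.85), Mcm6 (-0.72) and Mcm10 (-0.93), which acts when the helicase starts, were lower by less than 2-fold, with edgeR adjusted p-values under 0.05. So were the loaders Cdt1 (-0.59) and Cdc6 (-0.56), and Gmnn (geminin, which inhibits Cdt1), at -0.86. Exons of Mcm7 share 3.89% of their bases with Mir25 and Mir93 on the same strand.

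Of the genes that turn the loaded helicase on, Gins1 was the only one of 5 called lower. It stood at 52.4 and 54.0 CPM in tc;Sf1ESCs and 19.1 and 15.3 CPM in SCLCs (log2 fold change -1.58, SE 0.11, edgeR adjusted p = 1.63e-05). Gins2, a subunit of the same complex, stood at 57.7 and 55.5 CPM and at 51.0 and 47.1 CPM (log2 fold change -0.16, SE 0.09, edgeR adjusted p = 0.14). Exons of Gins2 overlap those of Gse1 on the other strand over 67.3% of their length, and the strand setting of the counting is not given in the sources used here. Cdc45, Gins3 and Gins4 lay between these ends at -0.50, -0.40 and -0.84.

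At the fork, 5 of 12 genes were called lower and 0 higher. Pola1, the catalytic subunit of the primase-bound polymerase alpha, had 176 and 175 CPM in tc;Sf1ESCs and 66.0 and 51.9 CPM in SCLCs (log2 fold change -1.52, SE 0.11, edgeR adjusted p = 1.61e-05). Pole2, a subunit of the leading-strand polymerase epsilon, was called lower (-1.40), as was its catalytic subunit Pole (-1.004). Pcna, the sliding clamp, went from 317 and 315 CPM to 129 and 137 CPM (log2 fold change -1.19). The clamp loader was split: Rfc5 was called lower (-1.12), Rfc3 was lower by less than 2-fold (-0.62), and Rfc4 did not pass the test (log2 fold change 0.19, SE 0.11, edgeR adjusted p = 0.177). Rfc4 had 28.3 and 29.1 CPM in tc;Sf1ESCs and 34.8 and 28.4 CPM in SCLCs, so that its groups overlapped. Against tcESCs, where it had 49.1 and 54.7 CPM, it was lower (log2 fold change -0.66), as were Rfc3 (-0.47) and Rfc5 (-1.04). Of the other fork genes, the ligase Lig1 (-0.87), polymerase delta's Pold1 (-0.89), the primase Prim1 (-0.72) and Pola2 (-0.37) were lower by less than 2-fold against tc;Sf1ESCs. Pole stood close to the 2-fold limit and was not called without SCLC replicate 2 (-0.84) or without tc;Sf1ESC replicate 2. Mcm7 was not called without SCLC replicate 2 either (-0.94). Fen1, the flap nuclease, stood at 0.45 to 2.32 CPM in all 8 libraries, and 84.2% of its exon bases overlap genes on the other strand, so that its level is uncertain.

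In nucleotide supply, Rrm2, the small subunit of ribonucleotide reductase, fell from 385 and 387 CPM to 121 and 130 CPM (log2 fold change -1.57, SE 0.07, edgeR adjusted p = 1.36e-06). Its partner Rrm1 (-0.65), thymidylate synthase Tyms (-0.93) and thymidine kinase Tk1 (-0.59) were lower by less than 2-fold. Tk1 stood at 93.8 and 93.2 CPM in tc;Sf1ESCs and 60.6 and 59.6 CPM in SCLCs, with SE 0.07 and edgeR adjusted p = 0.000179. All 4 genes of this role therefore differed in the same direction.

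The E2F factors themselves were not alike. The activator E2f2 was low throughout and was called lower, from 16.2 and 15.8 CPM to 7.02 and 5.98 CPM (log2 fold change -1.25, SE 0.13, edgeR adjusted p = 0.000108). E2f1, the other activator, was lower by less than 2-fold (log2 fold change -0.90). E2f8, a repressor of the family, had 28.8 and 31.8 CPM in tc;Sf1ESCs and 24.6 and 32.3 CPM in SCLCs (log2 fold change -0.04, SE 0.14, edgeR adjusted p = 0.819). Its groups overlapped, and its sign changed with the library left out.

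Cyclin E1 stood apart from the other cyclins. Ccne1 (ENSMUSG00000002068), which drives Cdk2 at the start of replication, had 58.0 and 58.0 CPM in tc;Sf1ESCs and 18.8 and 18.6 CPM in SCLCs (log2 fold change -1.58, SE 0.07, edgeR adjusted p = 1.58e-06). It was the only gene of 9 in this role to be called. Its paralog Ccne2 had 20.8 and 19.4 CPM and then 15.6 and 19.01 CPM (log2 fold change -0.17, edgeR adjusted p = 0.246). Ccna2, which acts in replication and on into mitosis, had 208 and 214 CPM and then 246 and 210 CPM, and the mitotic kinase Cdk1 had 137 and 139 CPM and then 156 and 140 CPM. Neither Ccna2 (log2 fold change 0.16) nor Cdk1 (0.16) passed the test. Ccnb1 (cyclin B1, -0.48), Cdc25a (-0.58) and Cdk2 (-0.45) were lower by less than 2-fold, and Ccnb2 stood at 0.28 and did not pass the test. Cdc25c, a phosphatase that turns Cdk1 on, was higher, with 21.1 and 18.6 CPM in tc;Sf1ESCs and 34.3 and 30.0 CPM in SCLCs (log2 fold change 0.75, SE 0.11, edgeR adjusted p = 0.000566).

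**Figure D3:**
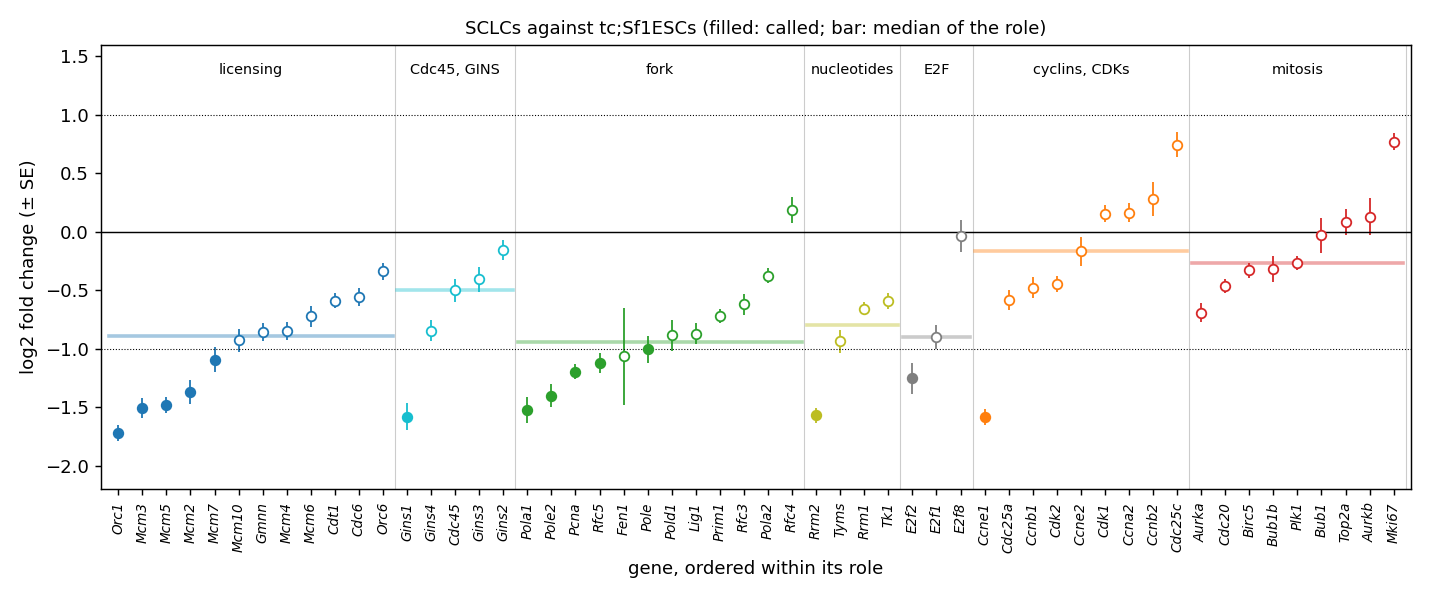
Log2 fold change (± SE, n = 2 libraries in each group) of SCLCs against tc;Sf1ESCs for the 54 genes, ordered within their roles. Filled points were called, the pale bar is the median of the role and dotted lines mark 2-fold. Most points of the first 4 roles lie well below 0, down to Orc1 at -1.72, while 6 of 9 mitosis genes lie below 0, down to Aurka at -0.69, and Mki67 is at 0.77.

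Among mitosis genes, 0 of 9 were called in either direction. Aurka, the centrosomal Aurora kinase, was the lowest, from 170 and 165 CPM to 108 and 92.4 CPM (log2 fold change -0.69, SE 0.08, edgeR adjusted p = 0.000194). Mki67, which encodes the proliferation antigen Ki-67, was the highest, from 246 and 242 CPM in tc;Sf1ESCs to 401 and 401 CPM in SCLCs (log2 fold change 0.77, SE 0.07, edgeR adjusted p = 5.45e-05). The checkpoint kinase Bub1, the topoisomerase Top2a and Aurkb, the Aurora kinase of the chromosomal passenger complex, stood at -0.03, 0.09 and 0.13 and did not pass the test. Each changed sign in 1 of 12 alternative settings. Cdc20 (-0.46), Birc5 (-0.33), Bub1b (-0.32) and Plk1 (-0.27) were also lower at an adjusted p under 0.05. Bub1 had 178 and 179 CPM in tc;Sf1ESCs and 199 and 139 CPM in SCLCs, so that its SCLC libraries lay on either side of the ESCs.

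The 2 SCLC libraries differed in the members as a set. Of 54 members, 45 were lower in replicate 2 than in replicate 1, with a median difference of -0.20 in log2(CPM + 0.1). In the other groups this median lay between -0.001 and 0.041. In SCLCs it was -0.18 for licensing factors and -0.23 for mitosis genes, so that both roles were lower in replicate 2. Nucleotide supply stood at 0.052 there, with 2 genes higher and 2 lower in replicate 2. Replicate 2 also had more endoderm marker RNA (4844 against 2837 CPM) and less pluripotency marker RNA (740 against 1003 CPM). Whether either takes part in the members' levels was not tested. Without replicate 1 or replicate 2 of the SCLCs, or without either ESC library, between 13 and 17 members were called lower against tc;Sf1ESCs.

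Against tcESCs, the line before the transgene, 17 of 54 members were called lower in SCLCs and 0 higher, beside 18.3% and 24.3% of all genes. With no limit on the fold, 41 were lower and 3 higher at an adjusted p under 0.05, beside 34.8% and 38%. The median was -0.59 over the members and 0.05 over all genes. By role, 6 of 12 licensing factors, 6 of 12 fork genes (Fen1 among them), 2 of 5 of Cdc45 and GINS, 1 of 4 nucleotide genes, 1 of 3 E2F factors, 1 of 9 cyclins, CDKs and CDC25 and 0 of 9 mitosis genes were called lower. Mki67 was again higher (log2 fold change 0.43, SE 0.07, edgeR adjusted p = 0.00109), with 329 and 294 CPM in tcESCs. Without SCLC replicate 2, Pole, Rfc5 and E2f1 were not called. Pole and Fen1 were also not called without tcESC replicate 1, nor Rfc5 without tcESC replicate 2. Both comparisons share the SCLC libraries, so the second is no independent repeat of the first.

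The gene lists around the members were read in the same way, against the same shares of all genes. Of 36 other replication genes, 11 were called lower and 1 higher in SCLCs against tc;Sf1ESCs, with a median log2 fold change of -0.72. Dna2, a nuclease and helicase of lagging-strand processing, was the lowest, from 137 and 142 CPM to 26.2 and 21.2 CPM (log2 fold change -2.51, SE 0.10, edgeR adjusted p = 1.38e-06). Pold4, the smallest subunit of polymerase delta, was the one called higher, from 3.66 and 3.69 CPM to 18.98 and 16.8 CPM (log2 fold change 2.33, SE 0.16, edgeR adjusted p = 1.26e-05). Of 46 other mitosis genes, 3 were called lower and 0 higher, with a median of -0.13. Ckap2, a microtubule-associated protein, was the lowest of these (log2 fold change -1.65, SE 0.12, edgeR adjusted p = 1.54e-05). Kif23, a kinesin of the central spindle, was the highest, from 131 and 125 CPM to 227 and 233 CPM (log2 fold change 0.90, SE 0.06, edgeR adjusted p = 9.3e-06).

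Among 18 RB, E2F, DREAM and MYB-MuvB regulators, 4 were called lower and 0 higher against tc;Sf1ESCs, and 2 lower and 1 higher against tcESCs. Mybl2, the B-Myb partner of MuvB, had the lowest value, from 701 and 708 CPM to 258 and 180 CPM (log2 fold change -1.64, SE 0.15, edgeR adjusted p = 5.86e-05). Rbl2, which encodes the RB relative p130, had the highest, from 16.9 and 17.3 CPM to 29.5 and 25.4 CPM (log2 fold change 0.74, SE 0.11, edgeR adjusted p = 0.000678). Rbl2, on chromosome 8, was the one called higher against tcESCs (11.1 and 10.7 CPM, log2 fold change 1.40).

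Among 12 CDK inhibitors and D cyclins with their kinases, 4 were called lower and 2 higher against tc;Sf1ESCs, with larger changes at both ends than in any member. Against tcESCs the balance was the other way, with 3 called lower and 5 higher, beside 18.3% and 24.3% of all genes. Between the ESC lines, 7 of the 12 were higher and 2 lower in tc;Sf1ESCs than in tcESCs at an adjusted p under 0.05, beside 16.7% and 16% of all genes. Ccnd1, cyclin D1, had 203 and 209 CPM in tc;Sf1ESCs and 5.02 and 5.26 CPM in SCLCs (log2 fold change -5.27, SE 0.08, edgeR adjusted p = 5.78e-08). Cdkn1c, the CDK inhibitor p57, had 4.32 and 4.88 CPM in tc;Sf1ESCs and 79.1 and 165 CPM in SCLCs (log2 fold change 4.78, SE 0.38, edgeR adjusted p = 2.59e-05). Named after their values were seen, Ccnd2 (cyclin D2) went the other way from Ccnd1, from 4.13 and 4.01 CPM to 81.1 and 78.6 CPM (log2 fold change 4.34), and Cdk6 fell by 3.65 on the log2 scale. The inhibitor Cdkn1a (p21) was called lower (log2 fold change -1.63).

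**Figure D4:**
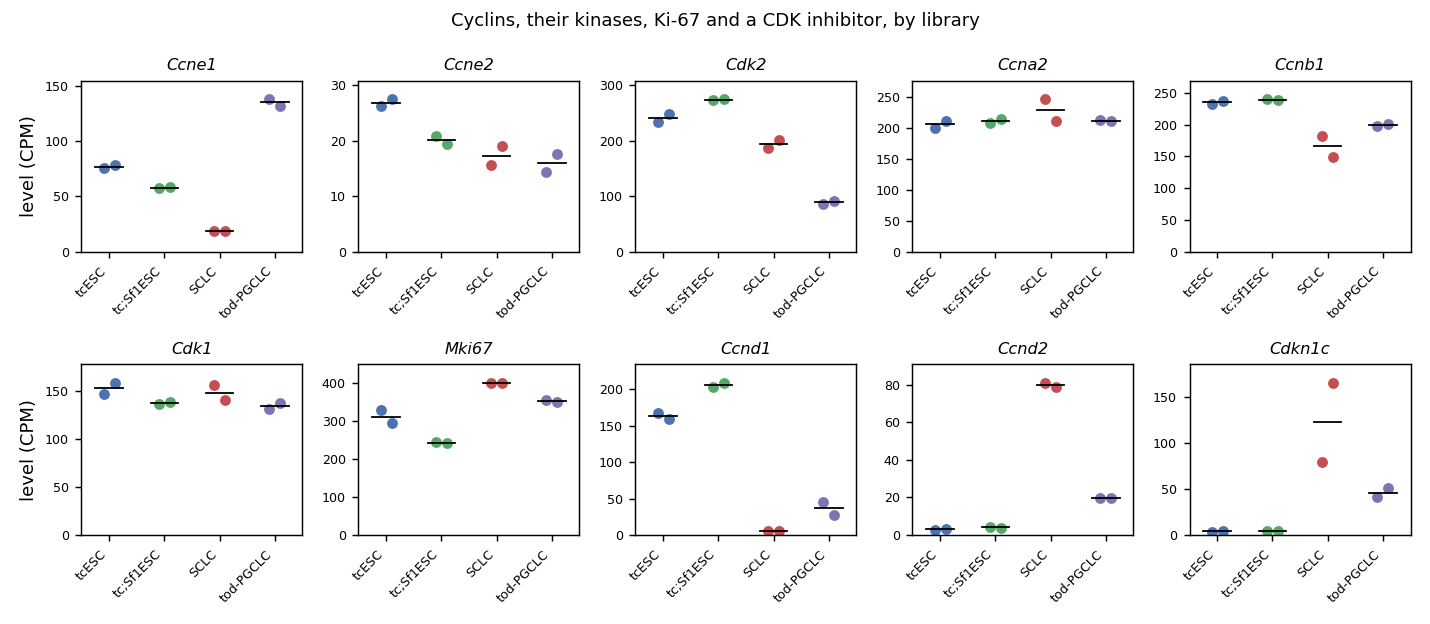
Level (CPM) of 10 cell cycle genes in each library (points) with the mean of each group of 2 (black bar); every axis starts at 0. Ccne1 and Ccnd1 are lowest in SCLCs, Ccnd2 and Cdkn1c are highest there, Cdk2 is lowest in tod-PGCLCs, and Ccna2 and Cdk1 are nearly level across the groups.

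The tod-PGCLCs were set against tcESCs, the ESCs without the Sf1 transgene, and no ESCs of their own line are among the libraries. Here 2 of 54 members were called lower and 0 higher, beside 11.2% and 18.1% of all 16707 genes tested. With no limit on the fold, 30 were lower and 7 higher, beside 29.2% and 32.8%. The median was -0.30 over the members and 0.03 over all genes, and the role medians ran from -0.49 for nucleotide supply to -0.03 for cyclins, CDKs and CDC25.

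Cdk2 (ENSMUSG00000025358), the partner of cyclins E and A, had the largest difference. It stood at 234 and 248 CPM in tcESCs, 274 and 275 CPM in tc;Sf1ESCs, 187 and 202 CPM in SCLCs and 86.5 and 91.4 CPM in tod-PGCLCs (tod-PGCLCs against tcESCs, log2 fold change -1.51, SE 0.07, edgeR adjusted p = 7.69e-07). Pola1 was the other member called lower, with 245 and 234 CPM in tcESCs and 108 and 119 CPM in tod-PGCLCs (log2 fold change -1.15, SE 0.10, edgeR adjusted p = 2.73e-05). Ccne1 was higher by less than 2-fold, with 75.8 and 78.1 CPM in tcESCs and 138 and 132 CPM in tod-PGCLCs (log2 fold change 0.74, SE 0.06, edgeR adjusted p = 1.92e-05). Cyclin E1 and its kinase thus differed in opposite directions.

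Set directly against tod-PGCLCs, SCLCs had 9 members called lower and 1 higher, beside 18.5% and 19.5% of all genes. With no limit on the fold, 31 were lower and 10 higher, beside 34.8% and 34.9%. The member called higher was Cdk2 (log2 fold change 1.26, SE 0.07, edgeR adjusted p = 8.86e-07), against the direction of most members. Ccne1 had the lowest value of the 54 (log2 fold change -2.71, SE 0.07, edgeR adjusted p = 2.21e-08). Mcm3 (-1.49), Gins1 (-1.46), Cdc45 (-1.34), Pold1 (-1.27), Rfc5 (-1.21), Rfc4 (-1.20), Rrm2 (-1.14) and Pole (-1.04) made up the rest. The median over the members was -0.39, and no mitosis gene was called. Pole was not called without SCLC replicate 2 (-0.87).

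Between both ESC lines, tc;Sf1ESCs and tcESCs, 0 of 54 members were called in either direction, beside 6.04% of all genes called higher and 5.62% lower. With no limit on the fold, 8 were higher and 8 lower, beside 16.7% and 16% of all genes. The median was -0.02 over the members. DESeq2 also called 0 members.

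Of these 16 differences, 8 lay on 2 chromosomes. Over the 864 genes tested on chromosome 8, the median log2 fold change was 0.47, and 56.1% of those genes were higher at an adjusted p under 0.05. Over the 502 genes tested on chromosome 16 the median was -0.46, and 50.4% were lower. Of 6 members on chromosome 8, 5 were higher: Gins3 (0.69), Cdt1 (0.64), Mcm5 (0.49), Orc6 (0.45) and Gins4 (0.41). The sixth, Gins2, stood at 0.07 (50.9 and 57.9 CPM, then 57.7 and 55.5 CPM, SE 0.09, edgeR adjusted p = 0.582), and its sign changed without tcESC replicate 1. All 3 members on chromosome 16 were lower, Rfc4 (-0.84), Cdc45 (-0.66) and Mcm4 (-0.59). Off chromosomes 6, 8, 11 and 16, 3 of 39 members were higher and 4 lower, beside 15.2% and 14.1% of all genes there.

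The levels show the same in each library. Cdt1, which brings the helicase to origins, had 193 and 197 CPM in tcESCs and 308 and 293 CPM in tc;Sf1ESCs (SE 0.06, edgeR adjusted p = 0.000518). Gins3 had 18.6 and 20.9 CPM and then 31.5 and 31.6 CPM (SE 0.11, edgeR adjusted p = 0.0033). Mcm5 had 507 and 515 CPM and then 718 and 708 CPM (SE 0.07, edgeR adjusted p = 0.00189). On chromosome 16, Mcm4 had 576 and 573 CPM in tcESCs and 381 and 373 CPM in tc;Sf1ESCs (SE 0.07, edgeR adjusted p = 0.00133). Rfc4 had 49.1 and 54.7 CPM and then 28.3 and 29.1 CPM (SE 0.11, edgeR adjusted p = 0.00186). Cdc45 had 118 and 125 CPM and then 77.1 and 74.7 CPM (SE 0.10, edgeR adjusted p = 0.00256). The 2 remaining members of chromosome 8 that passed the test belong to the origin recognition complex and to GINS. Orc6 had 98.2 and 110.0 CPM in tcESCs and 141.0 and 141.0 CPM in tc;Sf1ESCs (SE 0.07, edgeR adjusted p = 0.00363). Gins4 had 75.5 and 79.5 CPM and then 99.4 and 105 CPM (SE 0.09, edgeR adjusted p = 0.0143). Mcm2, the one member on chromosome 6, stood at -0.26, where the median gene stood at -0.31 over 776 genes. It had 630.5 and 637 CPM and then 522 and 528 CPM and did not pass the test (SE 0.10, edgeR adjusted p = 0.0836).

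The shifts of chromosomes 8 and 16 are carried into SCLCs when tcESCs are the reference, and are nearly absent when tc;Sf1ESCs are. The median of chromosome 8 was 0.58 in SCLCs against tcESCs and 0.04 in SCLCs against tc;Sf1ESCs, and that of chromosome 16 was -0.52 and -0.10. The members there move with the reference. For Cdt1 the log2 fold change was 0.05 against tcESCs and -0.59 against tc;Sf1ESCs, for Mcm5 it was -0.98 and -1.48, for Mcm4 it was -1.44 and -0.85, and for Rfc4 it was -0.66 and 0.19. Mcm5 was called against tc;Sf1ESCs and stood at the 2-fold limit against tcESCs, where it was not called in 7 of 12 alternative settings. Mcm4 and Cdc45 were called against tcESCs and not against tc;Sf1ESCs. The difference between the 2 references is the tc;Sf1ESC against tcESC comparison given above.

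In tod-PGCLCs against tcESCs, chromosome 11 had a median of 0.52 over 1344 genes, with 58.2% of its genes higher. Chromosome 6 had a median of -0.29 and chromosome X of 0.25, where their single members Mcm2 and Pola1 stood at -0.82 and -1.15. The 5 members on chromosome 11 did not move as one. Top2a (0.53) and Cdc6 (0.22) were higher, Birc5 (-0.44) and Tk1 (-0.93) were lower, and Aurkb stood at 0.23 (edgeR adjusted p = 0.186). Tk1 had 101 and 110 CPM in tcESCs and 57.0 and 59.7 CPM in tod-PGCLCs. In SCLCs against tod-PGCLCs the medians were 0.54 for chromosome 8, -0.53 for chromosome 16 and -0.53 for chromosome 11, where 57% of genes were higher, 55.7% lower and 53.9% lower in that order at an adjusted p under 0.05. Of the members, 4 of 6 on chromosome 8 were higher and 1 lower, 3 of 3 on chromosome 16 were lower, and 3 of 5 on chromosome 11 were lower and 1 higher. What the chromosome shifts contribute to single members was not tested.

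**Figure D5:**
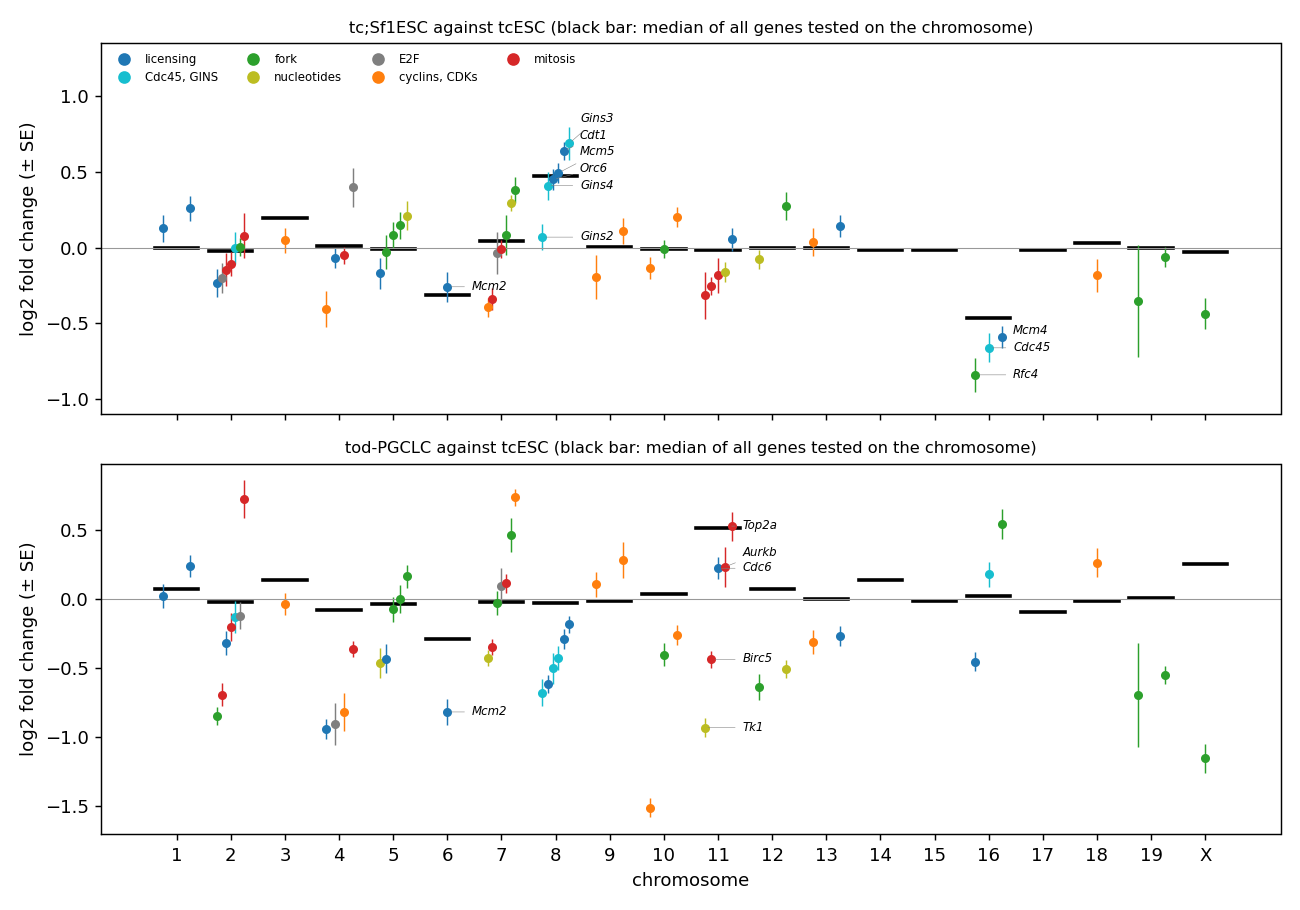
Log2 fold change (± SE) of the 54 genes by chromosome, coloured by role, for tc;Sf1ESCs against tcESCs (top) and tod-PGCLCs against tcESCs (bottom); black bars are the medians of all genes tested on the chromosome. In the top panel the bars of chromosomes 8 (0.47) and 16 (-0.46) stand off 0 with their members beside them, and in the bottom panel that of chromosome 11 (0.52) is the furthest from 0.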

How the data were processed

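The authors trimmed reads (Trim Galore), aligned them to GRCm38 with STAR 2.4.0 and deposited raw read counts per gene from HTSeq for each library, with no normalization; reads counted on no gene (35.6% to 41.6%) were left out of library sizes. Libraries were poly-A selected and strand-specific. Gene names, positions and exons came from GENCODE M21, and promoter windows from RefSeq (GRCm38.p6). CPM are counts over the library total on genes.

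Counts were tested in R 4.3.3 with edgeR 4.0.16 (quasi-likelihood test, TMM, Benjamini-Hochberg over all genes with a mean count above 10). The comparisons among tcESCs, tc;Sf1ESCs and SCLCs came from a fit of 6 libraries (16481 genes), and those with tod-PGCLCs from a fit of all 8 (16707 genes). SE is the log2 fold change over the root of the F statistic. With 2 libraries in each group, p-values rest on the spread between replicates, estimated over all libraries of a fit and moderated across genes. The SCLC libraries therefore enter the spread used for tc;Sf1ESCs against tcESCs. In tc;Sf1ESCs alone, the spread was little more than counting error. Floors cover counting error only.

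The 54 members and all lists were chosen with earlier results of these data known. Every member could be named. Full statistics were given for the ends of each role in SCLCs against tc;Sf1ESCs and for members called against the majority. They were also given for members on chromosomes shifted by over 0.2 in tc;Sf1ESCs against tcESCs, and for other lists the 2 ends at 1 CPM or more. DESeq2 1.42.0 was an alternative. The edgeR script was tested on simulated data.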

Additional observations from a re-analysis of the deposited data

How the results depend on the processing

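The counts of members called lower were 14 (SCLCs against tc;Sf1ESCs), 17 (SCLCs against tcESCs), 9 (SCLCs against tod-PGCLCs) and 2 (tod-PGCLCs against tcESCs), and stayed within 1.5 times these under RLE size factors, library totals, both other filters, the replicate block, the 4 libraries compared, all 8 libraries, DESeq2, and an adjusted p limit of 0.01. Testing against a 2-fold change gave 10 in SCLCs against tcESCs and 1 in tod-PGCLCs against tcESCs, by its stricter construction, and 11 and 7 in the other 2. Without a limit on the fold, the counts lower and higher were 41 and 2 (SCLCs against tc;Sf1ESCs), 41 and 3 (against tcESCs), 31 and 10 (against tod-PGCLCs), 30 and 7 (tod-PGCLCs against tcESCs) and 8 and 8 (tc;Sf1ESCs against tcESCs). With each library left out in turn, 13 to 17, 14 to 19, 8 to 11 and 2 to 3 members were called lower in the order above. The median of the members in tod-PGCLCs against tcESCs was -0.23 with library totals, -0.32 with filterByExpr and -0.32 with every gene with at least 1 count, and -0.35 to -0.27 with a library left out. Library totals moved the median of all genes by over 0.1 in SCLCs against tod-PGCLCs, to -0.15. E2f8 reversed with a library left out (-0.26 to 0.16 against tc;Sf1ESCs, -0.29 to 0.13 against tcESCs), as did Gins2 (-0.02 to 0.16, tc;Sf1ESCs against tcESCs). Both have small values, and Gins2 was at -0.018 without tcESC replicate 1. Other members near 0 changed sign in some alternatives too. Among them were Cdk1 (6 of 12), Bub1 (3 of 12) and Ccnb2 (2 of 12) in SCLCs against tcESCs, and Pole (7 of 11) in tod-PGCLCs against tcESCs. The 8-letter E2F-type forms lay in 13 replication and 0 mitosis members, and with the bases before the start only, the CHR-type motif lay in 3 mitosis members.

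Replicate numbers are shared between groups, but same-numbered libraries did not deviate together (correlations from -0.03 to 0.07). With the replicate number as a block, 14, 17, 9 and 2 members were called lower in the same order and 0 in tc;Sf1ESCs against tcESCs. Low counts limit Fen1, at 2.32 CPM or less, more than any other member, and 84.2% of its exon bases overlap genes on the other strand. Groups of 2 limit every comparison.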
